A study of Mus musculus with 9 samples.

Results

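Tumour-infiltrating ICOS+ CD4 T cells of mice given either checkpoint antibody were compared with those of control mice. The 6 antibody libraries, 3 from mice given anti-CTLA-4 and 3 from mice given anti-PD-1, were set against the 3 Control libraries, so the comparison used all 9 of the 9 libraries. Each library came from 1 C57BL/6J mouse bearing an MC38 tumour, a transplanted mouse colon adenocarcinoma line, at day 12 after injection of the tumour cells. All 9 mice carried the tumour, and all cells were sorted by flow cytometry as ICOS+ CD4 T cells. What the control mice received, which antibody clones and doses were used and how many cells were sorted is not stated in the labels. Changes shared by both antibodies were sought in the genes with at least 5 CPM (gene counts per 1e+06) in at least 7 of the 9 libraries. This held for 2993 of 45808 genes, called consistently detected from here on, and 1073 of them reached 5 CPM in all 9 libraries. The filter leaves out any gene under 5 CPM in all 3 controls, or in all 3 libraries of 1 antibody.

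CTLA-4 and PD-1 are inhibitory receptors of the CD28 family on T cells. CTLA-4 competes with the costimulatory receptor CD28 for its ligands on antigen-presenting cells, and PD-1 dampens signalling by the T cell receptor and CD28 after binding its own ligands in the tissue. ICOS is a further member of the family that appears on activated CD4 T cells, and in tumours the ICOS+ CD4 population includes both Foxp3+ regulatory T cells and effector cells. Antibodies against either receptor relieve its inhibition, and the study set out to compare their cellular mechanisms.

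The libraries held 25530333 to 41508589 gene counts, and depth did not differ between the groups beyond the spread (exact two-sided permutation p = 0.238, n = 3 and 6). Fewer genes were read with antibody: 6051 to 6309 genes reached 5 CPM in the Control libraries and 2662 to 5878 in the antibody libraries, without overlap (exact permutation p = 0.0238, the smallest that 84 divisions of 9 libraries into 6 and 3 can give, and 0.167 after Benjamini-Hochberg adjustment over 14 library measures). Of the consistently detected genes, 53 to 63 were under 1 CPM in a Control library and 80 to 1163 in an antibody library. Anti-CTLA-4 replicate 2 held the 1163 and anti-PD-1 replicate 2 the next highest value, 439. In anti-CTLA-4 replicate 2, Cd4 stood at 24.5 CPM and Cd3e at 0.59 CPM, against at least 308 and 347 CPM in every other library. Trac, the constant region of the T cell receptor alpha chain, was at 632 CPM there and at 264 to 612 CPM elsewhere. Cd3d and Cd3g were also highest there, at 696 and 649 CPM, against at most 289 and 579 CPM elsewhere. The same library had the highest marker sums of macrophages and monocytes, 7543 CPM against 581 to 1944 CPM in the other 8, and of fibroblasts, 5049 CPM against 573 to 1680 CPM. Counts and gene group medians that turn on it are given with and without it. Single members of the gene groups are given with all 9 libraries.

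**Figure D1:**
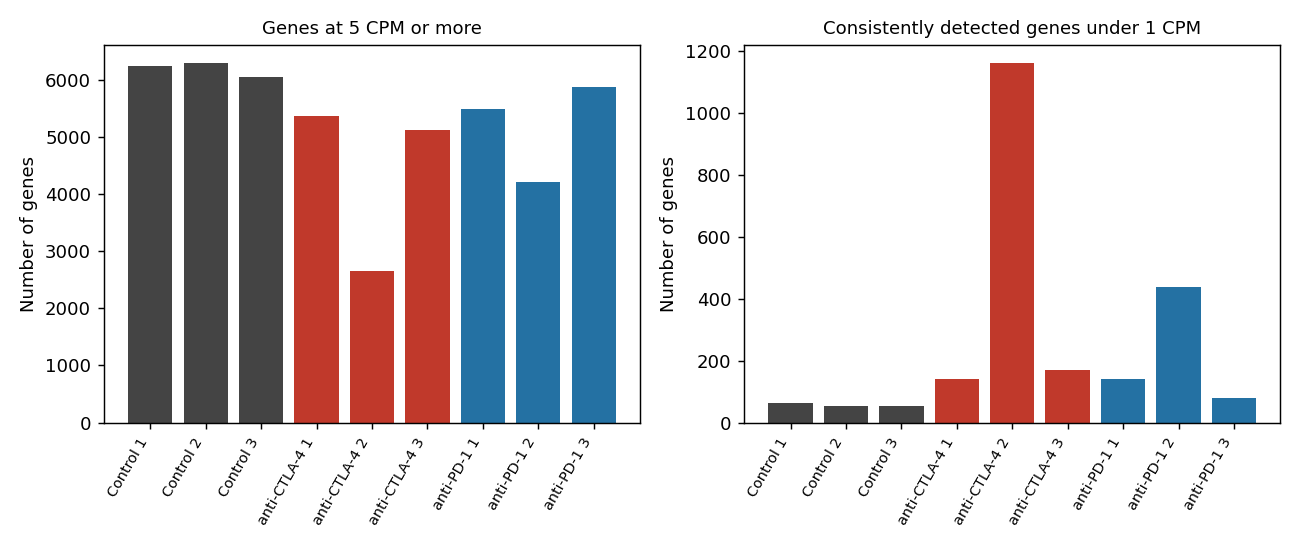
Number of genes at 5 CPM or more (left) and number of the consistently detected genes under 1 CPM (right) in each library; bars are single libraries, coloured by group. All 6 antibody libraries lie below the Control libraries on the left and above them on the right, with anti-CTLA-4 replicate 2 at 2662 and 1163 genes.

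No consistently detected gene passed the test of either antibody against Control. Of 2993 genes tested with edgeR's quasi-likelihood test, 0 had a Benjamini-Hochberg adjusted p under 0.05 (0%), the smallest adjusted p being 0.9997, and 6 (0.2%) had an unadjusted p under 0.05, all with higher fitted values with antibody. DESeq2 and limma voom with quality weights also called 0, with 62 and 169 genes at an unadjusted p under 0.05. Each antibody alone against the same 3 controls gave 0 calls too, with 114 genes (3.81%) at an unadjusted p under 0.05 for anti-CTLA-4 and 12 (0.401%) for anti-PD-1. The direct difference between the antibodies gave 0 calls in edgeR with 162 genes (5.41%) under 0.05, 43 calls in DESeq2 and 1 in voom. The coefficient of variation between mice was 1.21 over these genes. The median SD of log2 CPM within a group was 0.79 in Control, 2.94 with anti-CTLA-4 and 1.20 with anti-PD-1.

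A simpler description is whether the 6 antibody libraries lay on one side of all 3 Control libraries. Overlap was read on CPM divided by TMM factors. The factor was 0.469 for anti-CTLA-4 replicate 2, 0.953 for anti-PD-1 replicate 2 and between 1.08 and 1.16 for the other 7 libraries. In 27 of 2993 genes (0.902%) the groups did not overlap, 6 higher (0.2%) and 21 lower (0.702%) with antibody. The split depended on the scaling: with library totals alone it was 2 higher and 31 lower, and with RLE factors 12 higher and 14 lower. Each such gene has the smallest exact p that 6 against 3 allows, 0.0238, and none passed the adjusted test above. That p is also the rate at which random group labels leave a gene without overlap. The share of 0.902% was not above it.

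**Figure D2:**
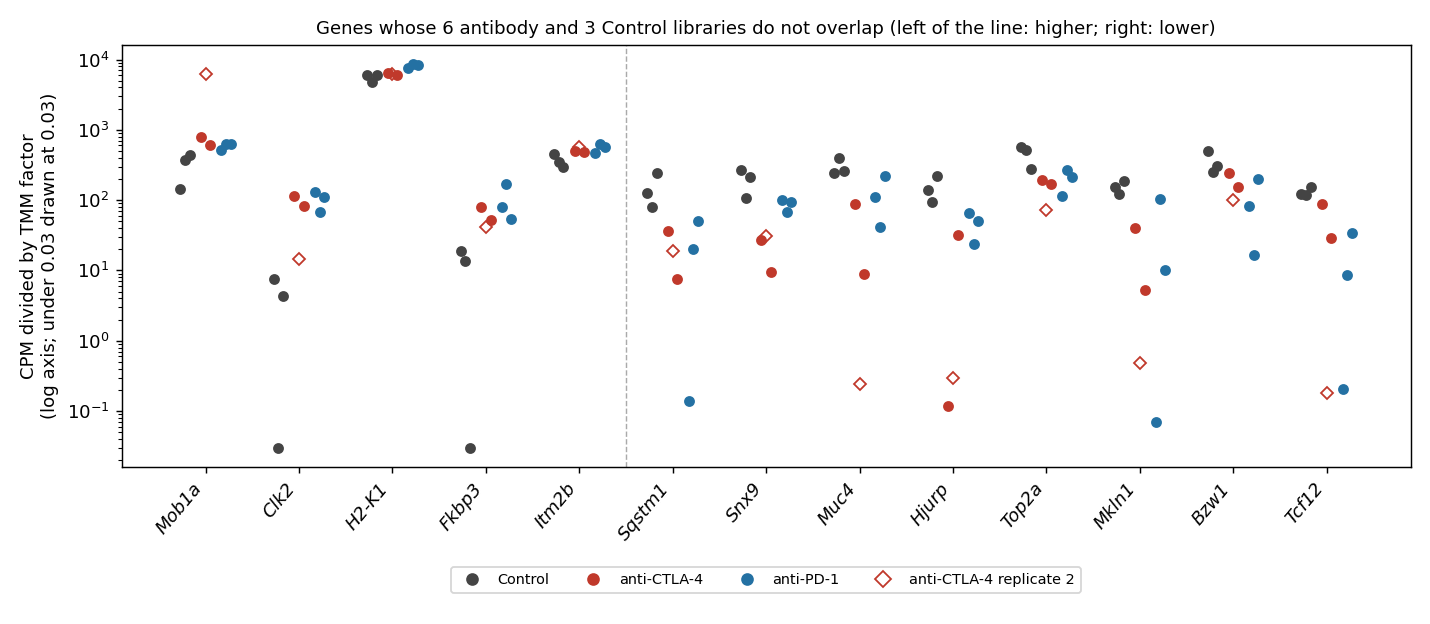
CPM divided by the TMM factor (log axis) in each library for 5 genes that were higher (left of the dashed line) and 8 that were lower with antibody in all 6 libraries; points are single libraries and the open diamond is anti-CTLA-4 replicate 2. Mob1a lies at 143 to 443 in Control and at 522 to 6163 with antibody.

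Mob1a, an adaptor that activates the LATS and NDR kinases of the Hippo pathway (ENSMUSG00000043131, GRCm38 chromosome 6, 83326016 to 83343776), was higher with both antibodies. It stood at 154, 433 and 509 CPM in Control replicates 1 to 3, at 894, 2890 and 668 CPM after anti-CTLA-4 and at 590, 609 and 698 CPM after anti-PD-1. All 6 antibody libraries lay above the highest control, also on plain CPM. The fitted log2 change was 1.94 (SE 0.67, unadjusted p = 0.00985, adjusted p = 0.9997, edgeR), made up of 2.98 (SE 0.76) for anti-CTLA-4 and 0.90 (SE 0.71) for anti-PD-1. Without anti-CTLA-4 replicate 2 it was 1.01 (SE 0.42), and the 2 antibodies then stood at 1.13 (SE 0.49) and 0.90 (SE 0.45). Of the 13 fitted Hippo kinase pathway genes, 7 were higher and 6 lower, with a median of 0.03, and Mob1a alone did not overlap. With anti-CTLA-4 replicate 2 left out, 6 of 13 were higher and the median was -0.01.

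Clk2, a kinase that phosphorylates splicing factors (ENSMUSG00000068917, chromosome 3, 89164795 to 89176921), was low in all controls. Its values were 8.14, 0.0322 and 4.95 CPM in Control, 128, 6.80 and 90.4 CPM after anti-CTLA-4, and 148, 64.4 and 122 CPM after anti-PD-1. The 5 libraries other than anti-CTLA-4 replicate 2 were at least 64.4 CPM, while that library lay below Control replicate 1 until scaled by its TMM factor. The Control replicate 2 value is under the 3 counts taken as the floor, and the fitted log2 change of 4.42 (SE 2.03, unadjusted p = 0.0424, adjusted p = 0.9997, edgeR) depends on how that value is treated. The antibodies gave 4.14 and 4.69, and their difference of -0.55 (SE 1.84) was smaller than its error.

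H2-K1, a classical MHC class I heavy chain (ENSMUSG00000061232, chromosome 17, 33996017 to 34000347), is one of the most abundant genes of the comparison and the one with the smallest error. It stood at 6417, 5560 and 6812 CPM in Control, at 7127, 2904 and 6702 CPM after anti-CTLA-4 and at 8480, 8274 and 9394 CPM after anti-PD-1. All 3 anti-PD-1 libraries were above every other library. All 3 anti-CTLA-4 libraries lay above the controls only after TMM scaling, at 6333, 6193 and 6055 against 5961, 4808 and 5937 in Control. The pooled log2 change was 0.36 (SE 0.23, 95% interval -0.12 to 0.84), with 0.15 (SE 0.26) for anti-CTLA-4 and 0.56 (SE 0.26) for anti-PD-1.

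Fkbp3, a nuclear prolyl isomerase, averaged 12.1 ± 10.7 CPM in Control (SD, n = 3) and 80.1 ± 48.4 CPM with antibody (SD, n = 6), and Itm2b, an integral membrane protein, 413 ± 75.2 and 519 ± 130 CPM. On plain CPM anti-CTLA-4 replicate 2 lay within the range of the controls for Fkbp3, at 19.2 CPM, and below all of them for Itm2b, at 265 CPM. It lay above all controls only after scaling.

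Among the 21 lower genes, Top2a and Hjurp act in cell division. Top2a, the topoisomerase that untangles chromosomes before division (ENSMUSG00000020914, chromosome 11, 98992943 to 99024189), stood at 606, 589 and 315 CPM in Control, at 220, 34.0 and 186 CPM after anti-CTLA-4 and at 129, 256 and 236 CPM after anti-PD-1. Every library was above the floor, and the highest antibody value was below the lowest control. The log2 change was -1.40 (SE 0.81, unadjusted p = 0.1004, edgeR), with -1.63 for anti-CTLA-4 and -1.18 for anti-PD-1, and it was -1.24 (SE 0.47) without anti-CTLA-4 replicate 2. Hjurp, the chaperone that loads the centromeric histone Cenpa, stood at 148, 109 and 250 CPM in Control and at 0.131 to 74.2 CPM with antibody. The fitted G2 and M phase genes as a whole did not lie lower: 6 of 11 were higher and 5 lower, with a median of 0.13 (-0.02 without anti-CTLA-4 replicate 2), and Stmn1, which destabilises microtubules, had a fitted change of 3.41 (SE 2.16). Of 8 S phase genes 4 were higher and 4 lower.

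Sqstm1, the autophagy receptor p62, stood at 135, 93.0 and 276 CPM in Control and at 0.157 to 56.5 CPM with antibody, with a log2 change of -2.75 (SE 1.52). Snx9, a sorting nexin of endocytosis (ENSMUSG00000002365, chromosome 17, 5841329 to 5931954), stood at 293, 126 and 244 CPM in Control, at 30.5, 14.6 and 10.4 CPM after anti-CTLA-4 and at 114, 65.0 and 105 CPM after anti-PD-1. The 3 anti-CTLA-4 libraries were below all anti-PD-1 libraries. The difference between the antibodies was larger than its error (log2 -1.96, SE 1.505) but did not pass the test (unadjusted p = 0.209, adjusted p = 0.999, edgeR). Muc4, a membrane mucin, stood at 264 to 453 CPM in Control and 0.112 to 248 CPM with antibody (log2 -2.25, SE 1.27).

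Regulators of transcription, translation and signalling completed the named lower genes. Bzw1, a regulator of start codon choice, averaged 394 ± 127 CPM in Control and 136 ± 100 CPM with antibody. Mkln1, a subunit of a ubiquitin ligase complex, averaged 173 ± 35.2 and 27.2 ± 39.7 CPM, and Tcf12, an E protein of lymphocyte development, 149 ± 25.9 and 29.8 ± 38.0 CPM. The SD with antibody exceeded the mean for the last 2. In 16 of the 21 lower genes at least 1 antibody library was under 1 CPM, and in 9 the lowest library was anti-CTLA-4 replicate 2, which was the lowest of the 9 in 46.5% of all consistently detected genes. In bulk libraries, fewer cells that express a gene and less RNA per cell cannot be told apart, and the part of the lower gene detection in these values was not tested.

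**Figure D3:**
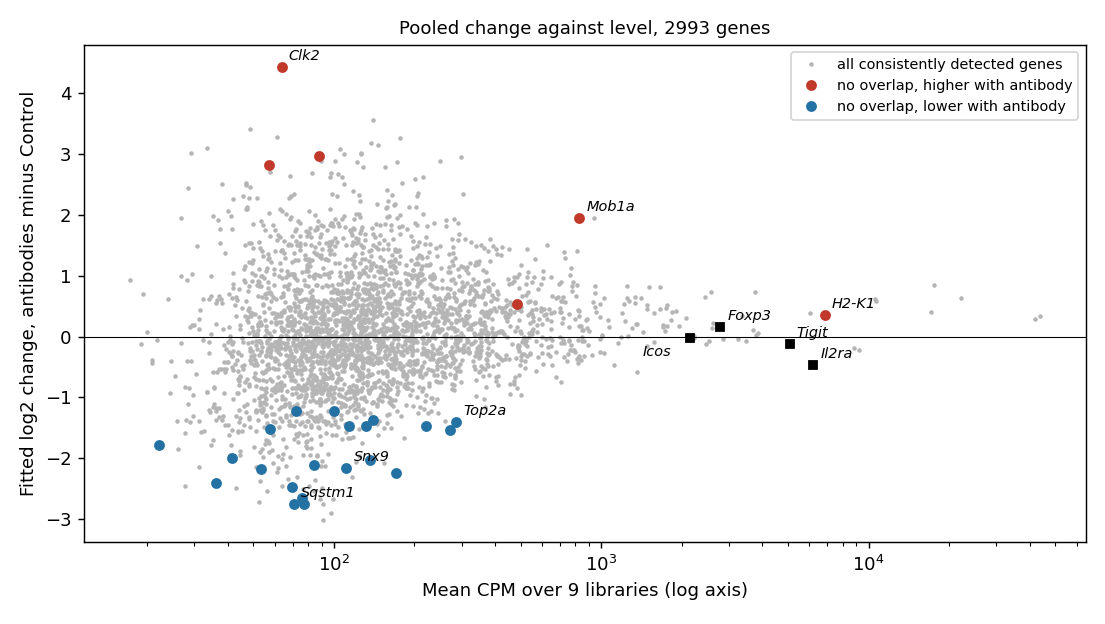
Fitted log2 change, antibodies minus Control, against mean CPM over the 9 libraries (log axis) for 2993 genes; red and blue points are genes whose groups did not overlap and black squares are 4 named genes that did overlap. The scatter narrows with level, and the T cell genes Icos, Foxp3, Tigit and Il2ra lie between -0.46 and 0.15.

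The size of change that could be seen depended strongly on level. The median SE of the log2 change was 1.41 over all 2993 genes and 0.38 over the 74 genes that averaged 1000 CPM or more. For 36 genes, 35 of them in that class, the 95% interval lay within 1 log2 unit of 0 on both sides, so a change of 2-fold or more lay outside it. This bound was lost under another scaling: with RLE factors the median SE of these 36 genes was 0.63 in place of 0.32, and 0 of the 36 intervals stayed within 2-fold. Under TMM the bounded genes included the regulatory T cell factors Foxp3 (interval -0.46 to 0.76) and Ikzf2 (-0.82 to 0.63), the receptors Icos (-0.71 to 0.66), Cd28 (-0.74 to 0.65), Tigit (-0.67 to 0.42), Il2ra (-0.96 to 0.03) and Il2rg (-0.62 to 0.93), and the leukocyte phosphatase Ptprc (-0.84 to 0.60). With RLE factors the interval of Icos was -0.98 to 1.57 and that of Foxp3 -0.71 to 1.69. RLE factors moved the median change of all genes from 0.04 to 0.33 and library totals moved it to -0.14, so single changes of this size are read relative to that shift.

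Il2ra, the alpha chain of the interleukin 2 receptor that regulatory T cells carry at high levels, had the lowest fitted value of these receptors. It stood at 5987, 8761 and 9748 CPM in Control, at 5793, 2179 and 4853 CPM after anti-CTLA-4 and at 6727, 5288 and 6490 CPM after anti-PD-1. Of the 6 antibody libraries, 4 lay below the lowest control on plain CPM, and 2 anti-PD-1 libraries overlapped it. The log2 change was -0.46 (SE 0.23, unadjusted p = 0.0631, exact permutation p = 0.0714), with -0.61 (SE 0.28) for anti-CTLA-4 and -0.32 (SE 0.28) for anti-PD-1. It was -0.08 with RLE factors and -0.67 with library totals.

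Foxp3, the lineage factor of regulatory T cells, stood at 2362 to 3231 CPM in Control and at 898 to 3901 CPM with antibody, with a log2 change of 0.15 (SE 0.29). Icos stood at 1851 to 2866 CPM in Control and at 507 to 2876 CPM with antibody, a log2 change of -0.03 (SE 0.33). For Cd4 it was -0.15 (SE 0.69) and for Cd3e -0.09 (SE 0.96), and the sign of these 3 turned when anti-CTLA-4 replicate 2 was left out, to 0.06, 0.09 and 0.20. The groups overlapped for all 4 genes.

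The genes of the 2 antibody targets did not separate the groups either. Ctla4 stood at 755, 1124 and 1086 CPM in Control, at 641, 499 and 882 CPM after anti-CTLA-4 and at 590, 653 and 464 CPM after anti-PD-1. On plain CPM 5 of 6 antibody libraries were below the lowest control, and the log2 change was -0.40 (SE 0.49), but 0.07 with RLE factors. Pdcd1, which encodes PD-1, was not consistently detected: it stood at 89.5, 46.5 and 0.14 CPM in Control, at 0.0985, 262 and 0.0612 CPM after anti-CTLA-4 and at 164, 24.4 and 116 CPM after anti-PD-1. It was near 0 in 1 control and 2 anti-CTLA-4 libraries, and no change was fitted for it.

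Tigit, an inhibitory receptor for nectin ligands, lay on opposite sides of Control with the 2 antibodies. Its values were 4530, 5337 and 6352 CPM in Control, 4296, 1173 and 2639 CPM after anti-CTLA-4 and 6581, 6389 and 8247 CPM after anti-PD-1. Every anti-CTLA-4 library was below every control and every anti-PD-1 library above every control. The pooled log2 change was -0.12 (SE 0.26), and the antibodies differed from each other by -1.20 (SE 0.31, unadjusted p = 0.000954, edgeR), which did not pass adjustment over all genes.

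The 5 genes other than Mob1a with an unadjusted p under 0.05 were Clk2 and 4 genes whose groups overlapped. H2-Eb1, a chain of MHC class II, stood at 9.64, 112 and 121 CPM in Control, at 98.8, 919 and 195 CPM after anti-CTLA-4 and at 324, 614 and 294 CPM after anti-PD-1 (log2 2.95, SE 1.10). Its highest value was in anti-CTLA-4 replicate 2, and 5 of 6 antibody libraries lay above all controls. Its class II partner H2-Aa was at 20.2, 0.0643 and 0.0838 CPM in Control, at 38.8, 2.53 and 27.1 CPM after anti-CTLA-4 and at 64.1, 161 and 7.42 CPM after anti-PD-1. Of the 6 antibody libraries 4 lay above the highest control. H2-Ab1 stood at 1.61 to 59.5 CPM in Control and 0 to 214 CPM with antibody, and the invariant chain Cd74 at 9.33 to 307 and 12.0 to 222.7 CPM, both with overlap. Antigen-presenting cells carry class II at high levels: the summed level of the other 11 dendritic cell markers was 18.3 to 467 CPM in Control and 191 to 714 CPM with antibody (exact two-sided permutation p = 0.452). Flt3 and Clec9a of that list were at 0 in every library, and the part of such cells in the H2-Eb1 values was not tested.

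Ctsb, a lysosomal protease, Gnas, the stimulatory G protein alpha subunit, and Rbmx, a splicing regulator, each peaked in anti-CTLA-4 replicate 2, with 1496, 1786 and 437 CPM. Their pooled log2 changes of 2.34, 1.40 and 3.01 were 0.62 (SE 0.87), 0.61 (SE 0.43) and 2.33 (SE 1.35) without that library, and that of H2-Eb1 was 1.71 (SE 0.80). None of these 4 then had an unadjusted p under 0.05.

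With anti-CTLA-4 replicate 2 left out, the same 2993 genes, filtered on all 9 libraries, were read again. The 5 antibody libraries and 3 Control libraries did not overlap in 77 genes (2.57%), 35 higher (1.17%) and 42 lower (1.4%). All 27 genes of the full comparison were among the 77. This is fixed apart from the rescaling, since leaving out 1 antibody library cannot create overlap, and fewer libraries overlap less easily. Again 0 genes passed (0%), with 35 (1.17%) at an unadjusted p under 0.05 and a smallest adjusted p of 0.999985 (edgeR). The genes described next were named from this smaller comparison after the values of the full one were seen, by the same rule of the smallest p among genes without overlap. The smallest two-sided exact p for 5 against 3 is 0.0357. Random group labels leave a gene without overlap at that rate, and the share of 2.57% was not above it.

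**Figure D4:**
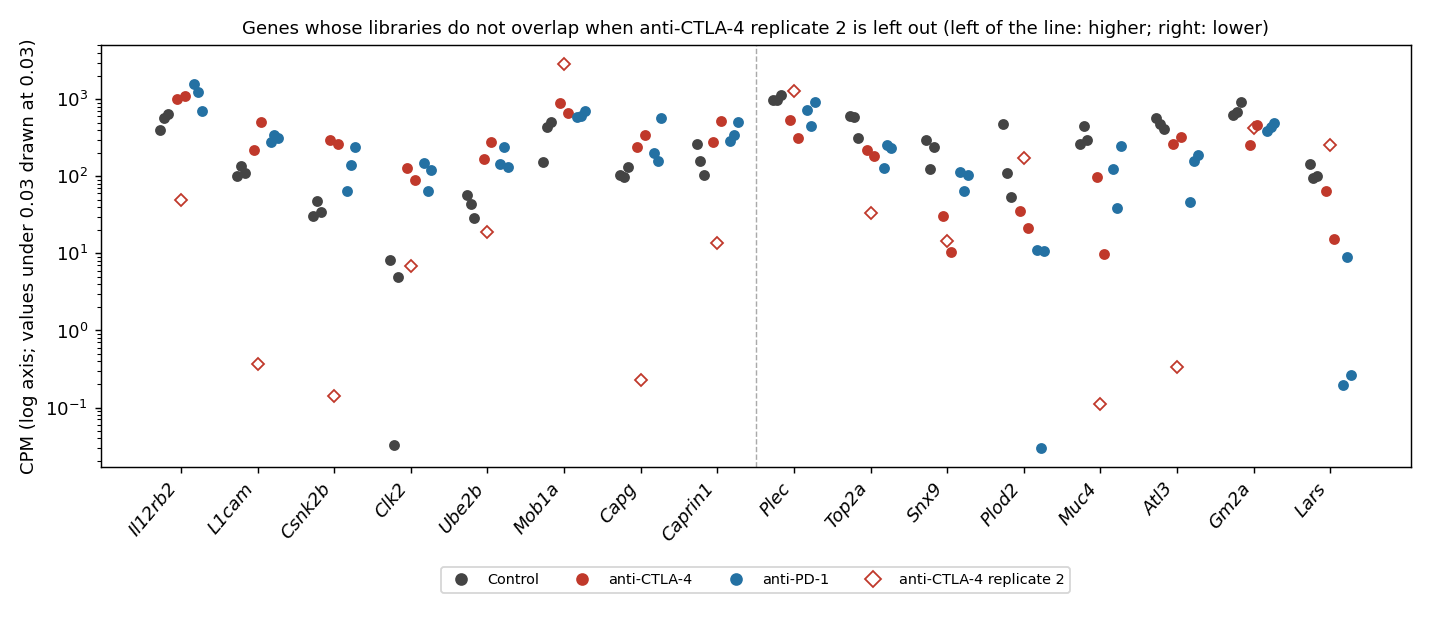
CPM (log axis) in each library for the 8 higher (left of the dashed line) and 8 lower genes with the smallest p when anti-CTLA-4 replicate 2 is left out; that library is drawn as an open diamond and entered no value of the choice. Il12rb2 lies at 397 to 642 CPM in Control and at 709 to 1563 CPM in the 5 antibody libraries, and at 48.7 CPM in the omitted one.

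Il12rb2, the signalling chain of the interleukin 12 receptor that Th1 cells carry (ENSMUSG00000018341, chromosome 6, 67291318 to 67376188), had the smallest p. It stood at 397, 577 and 642 CPM in Control, at 1024 and 1100 CPM in anti-CTLA-4 replicates 1 and 3 and at 1563, 1230 and 709 CPM after anti-PD-1. The log2 change was 1.11 (SE 0.34, unadjusted p = 0.00616, adjusted p = 0.999985, edgeR), with 1.0004 (SE 0.40) for anti-CTLA-4 and 1.21 (SE 0.37) for anti-PD-1. With all 9 libraries it was 0.85 (SE 0.63), since anti-CTLA-4 replicate 2 held 48.7 CPM. Of the 7 fitted Th1 effector genes, 6 were higher without that library and 4 with it.

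L1cam, an adhesion molecule of the immunoglobulin family, stood at 101, 137 and 111 CPM in Control and at 218 to 507 CPM in the 5 antibody libraries (log2 1.60, SE 0.56). Capg, an actin capping protein on the regulatory T cell list, stood at 105, 97.1 and 131 CPM in Control and at 158 to 577 CPM with antibody (log2 1.49, SE 0.63). Csnk2b, the regulatory subunit of casein kinase, averaged 37.5 ± 9.21 CPM in Control (SD, n = 3) and 203 ± 97.6 CPM with antibody (SD, n = 5). Ube2b, a ubiquitin-conjugating enzyme of DNA repair, averaged 43.5 ± 14.2 and 193 ± 63.4 CPM, and Caprin1, an RNA-binding protein of stress granules, 174 ± 80.1 and 388 ± 119 CPM. Skap1, an adaptor that couples the T cell receptor to integrins, stood at 63.9 to 81.6 CPM in Control and 73.1 to 416 CPM with antibody, and its groups separated only after scaling. On plain CPM all 6 of these genes were lower in anti-CTLA-4 replicate 2 than in any control.

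Plec, a cytoskeletal linker protein, stood at 984, 993 and 1125 CPM in Control, at 544 and 314 CPM after anti-CTLA-4 and at 736, 446.6 and 936 CPM after anti-PD-1 (log2 -0.87, SE 0.33). The omitted library, at 1296 CPM, was above all controls. Gm2a, a lysosomal lipid cofactor, averaged 745 ± 160 CPM in Control and 404 ± 90.8 CPM in the 5 libraries. The omitted library, at 423 CPM, lay below all controls on plain CPM. With each library divided by its TMM factor of the full comparison, the omitted one lay above all controls. Atl3, a shaper of the endoplasmic reticulum, averaged 486 ± 78.2 and 197 ± 107 CPM. Plod2, a collagen lysyl hydroxylase, stood at 473, 110 and 53.8 CPM in Control and at 0 to 35.7 CPM with antibody, and Lars, a leucyl-tRNA synthetase, at 94.3 to 145 and 0.196 to 64.9 CPM. The interleukin signalling inhibitor Cish (129 to 328 and 39.4 to 125 CPM) and Nfkbiz, an atypical inhibitor of NF-kappaB (322 to 493 and 128 to 277 CPM), were also without overlap. On plain CPM the omitted library was above all controls for Nfkbiz and Lars, at 954 and 259 CPM. It lay within the control range for Cish and Plod2, at 153 and 174 CPM, and below all controls for Atl3, at 0.337 CPM.

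Gene groups are described by counts and medians of the fitted log2 change beside those of all 2993 genes, of which 1552 (51.9%) were higher and whose median was 0.04. In 29 lists, 439 genes were fitted and 0 were called. Of the 439, 6 did not overlap between the groups, beside 27 of all 2993 genes (0.902%). The 6 were Mob1a, H2-K1, Pdia4, Ebp, Casp1 and Top2a. Since the scalings move all genes together, list medians were read against the median of all genes under each scaling. Of the 29 lists, 11 lay above it and 12 below it under TMM, RLE and library totals alike, and 6 lay on different sides. Without anti-CTLA-4 replicate 2, 9 of the 11 were still above it, among them Th1 effector, cytotoxic effector, MHC class I, proteasome, mitochondrial genome and S phase genes, and glycolysis and translation factors were not. Of the 12, 8 were still below it, among them NF-kappaB, apoptosis, quiescence and inhibitory receptor genes. These are pooled positions, and 3 of the named lists had opposite signs for the antibodies without that library. The 5 cytotoxic effector genes had medians of -0.34 for anti-CTLA-4 and 0.75 for anti-PD-1. MHC class I genes had -0.01 and 0.39, and inhibitory receptor genes -0.63 and 0.45. The other lists named as still above or below had the same sign for both antibodies.

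**Figure D5:**
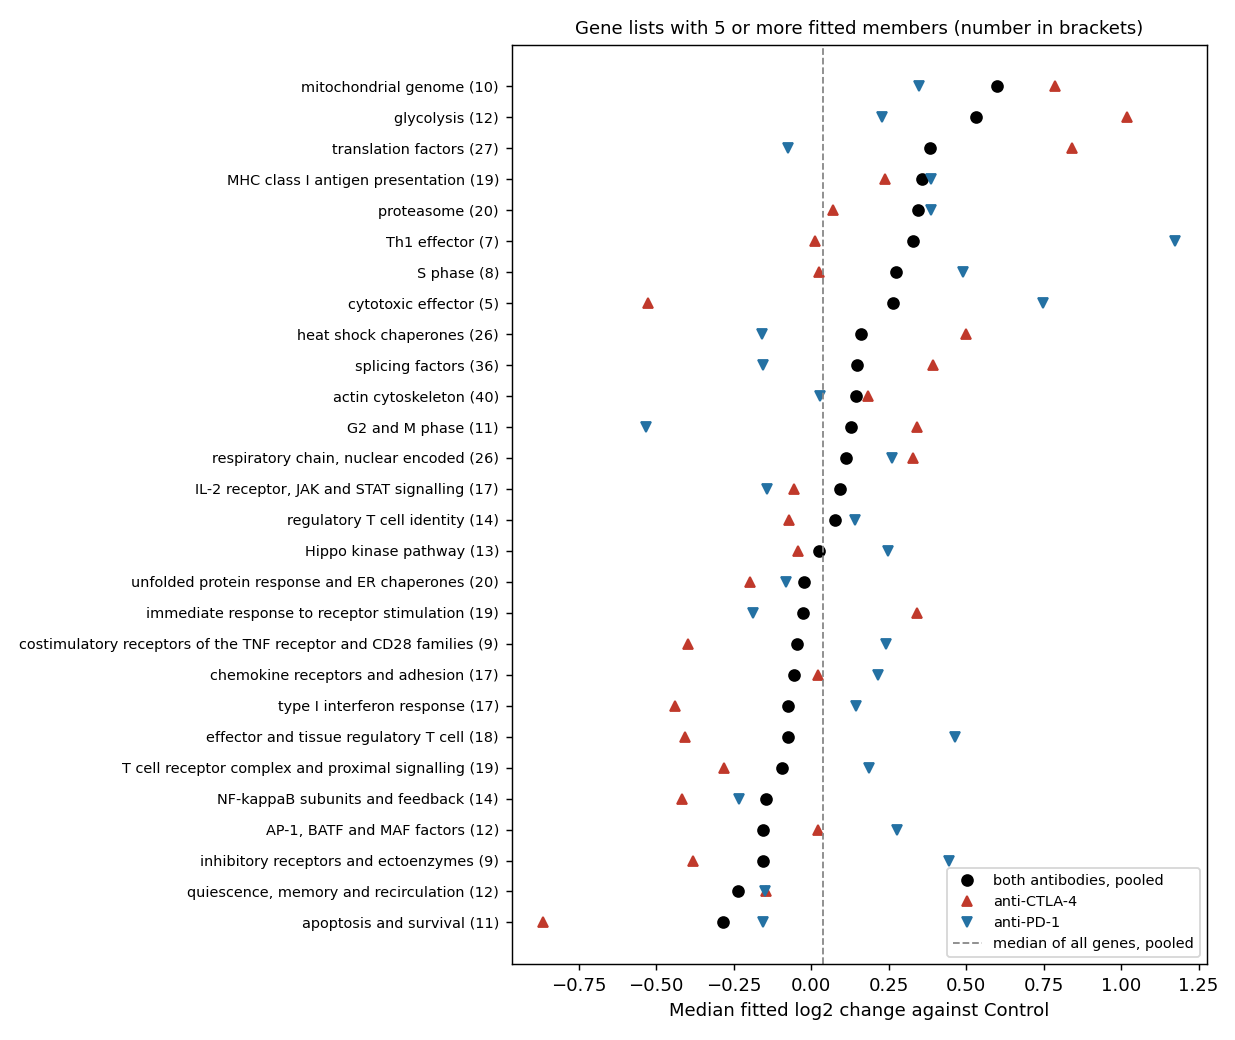
Median fitted log2 change against Control of each gene list with at least 5 fitted members, for both antibodies pooled (black circles), anti-CTLA-4 (red triangles) and anti-PD-1 (blue triangles); the dashed line is the pooled median of all genes, 0.04. Pooled medians run from -0.28 for apoptosis genes to 0.60 for mitochondrial genome genes, and the single antibodies often lie on opposite sides.

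Regulatory T cell identity genes were divided, with 8 of 14 higher and a median of 0.08, or 7 of 14 and 0.00 without anti-CTLA-4 replicate 2. Izumo1r, the folate receptor 4 of regulatory T cells, stood at 270 ± 166 CPM in Control and 102 ± 141 CPM with antibody. Among 18 effector and tissue regulatory T cell genes, 8 were higher, with a median of -0.08, or 10 and 0.07 without that library. The calcium-binding proteins S100a4 and S100a6 had fitted changes of 2.18 (SE 1.30) and 1.24 (SE 0.82), and the chemokine receptor Ccr8 and the costimulator Tnfrsf9 changes of -1.44 (SE 1.48) and -0.96 (SE 0.92). This list had a median of -0.41 for anti-CTLA-4 and 0.47 for anti-PD-1, and inhibitory receptors and ectoenzymes -0.38 and 0.45. Without anti-CTLA-4 replicate 2 the anti-CTLA-4 medians were -0.28 and -0.63. Both comparisons share the 3 controls, and the difference of medians was not tested. Lag3, an inhibitory receptor for MHC class II, had -1.75 with anti-CTLA-4 and 0.45 with anti-PD-1.

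T cell receptor genes were also divided, with 9 of 19 higher and a median of -0.09. Without anti-CTLA-4 replicate 2 it was 12 of 19 and 0.09. The receptor chains Cd3g and Cd3d had fitted changes of 1.45 (SE 0.81) and 1.29 (SE 1.06), and the adhesion receptor Cd2 -0.84 (SE 0.72). Both chains were highest in anti-CTLA-4 replicate 2. In the other antibody libraries Cd3g stood at 182 to 579 CPM and Cd3d at 64.7 to 289 CPM, against 115 to 284 and 55.3 to 235 CPM in Control. Of 19 immediate response genes 9 were higher, with a median of -0.03 that was -0.55 without anti-CTLA-4 replicate 2. Jun, an AP-1 subunit, had 4.07 with anti-CTLA-4 and 0.27 with anti-PD-1, whereas the nuclear receptor Nr4a3 had -0.17 and -1.89. NF-kappaB genes had 4 of 14 higher and a median of -0.15, or -0.07 without that library, with Nfkbia, the feedback inhibitor, at 381 ± 144 CPM in Control and 146 ± 82.6 CPM with antibody, and Birc3 at 155 ± 92.9 and 57.0 ± 37.6 CPM. Quiescence genes had 4 of 12 higher and a median of -0.24.

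Of the Th1 effector genes, Hopx, a homeodomain cofactor, stood at 74.8 ± 40.9 CPM in Control and 272 ± 304 CPM with antibody (log2 2.35, SE 1.26), and the chemokine Ccl5 at 103 ± 55.8 and 203 ± 78.4 CPM. The list median was 0.33 pooled, 0.01 for anti-CTLA-4 and 1.18 for anti-PD-1, and without anti-CTLA-4 replicate 2 it was 0.62 pooled and 0.33 for anti-CTLA-4. Chemokine receptor and adhesion genes had 7 of 17 higher, with a median of -0.06, or -0.02 without that library. Ccr4, a receptor of skin and tumour homing, had a fitted change of -2.08 (SE 1.07), made up of -0.30 for anti-CTLA-4 and -3.85 for anti-PD-1, and Ccr2 a change of 0.59 (SE 0.43).

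MHC class I antigen presentation genes had 12 of 19 higher and a median of 0.36, which was 0.14 without anti-CTLA-4 replicate 2. The immunoproteasome subunit Psmb8 stood at 58.4 ± 25.8 CPM in Control and 147 ± 68.4 CPM with antibody, the peptide transporter Tap1 at 189 ± 60.2 and 377 ± 226 CPM, and the heavy chain H2-D1 at 918 ± 156 and 1073 ± 301 CPM. Proteasome genes had 14 of 20 higher and a median of 0.34, or 0.29 without that library, with Psmc2, an ATPase of the regulatory particle, at 143 ± 58.5 and 365 ± 330 CPM. The errors of these single genes were as large as 1.29 on the log2 scale for Psmb8 and 0.99 for Psmc2. Type I interferon response genes had 7 of 17 higher and a median of -0.08.

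All 10 fitted mitochondrial genome genes were higher, with changes of 0.34 to 1.45 and a median of 0.60. The median was 0.27 with library totals and 0.28 without anti-CTLA-4 replicate 2. Of 12 glycolysis genes 9 were higher, with a median of 0.53, but 5 of 12 and a median of -0.06 without that library. Pkm, the last enzyme of the pathway, stood at 732 ± 306 CPM in Control and 1049 ± 447.5 CPM with antibody, and Gapdh at 2188 ± 226 and 2581 ± 844 CPM.

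Over the whole table of 7858 genes kept by a filter on low counts, 8 passed the pooled test (0.102%), all higher, of 576 (7.33%) at an unadjusted p under 0.05. None of the 8 was consistently detected, which the filter fixes for any gene under 5 CPM in all 3 controls. They were Apex1, a DNA repair nuclease; Fmn1, a formin; Ldah, a lipid droplet hydrolase; Pfkfb2, a regulator of glycolysis; Rhot1, a mitochondrial transport protein; Slc27a1, a fatty acid transporter; Xylt2, a xylosyltransferase; and Zfp948, a zinc finger protein. Each was at or below 1.23 CPM in every control, reached 5 CPM in at most 5 libraries and peaked in anti-CTLA-4 replicate 2, with 427 to 1225 CPM. Fmn1, for example, stood at 73.0, 1008 and 52.9 CPM after anti-CTLA-4 and at 54.8, 0.0302 and 0.175 CPM after anti-PD-1. For Fmn1, Slc27a1 and Xylt2 the antibodies also differed from each other (adjusted p = 0.0236, 0.00126 and 1.59e-07, edgeR). Without anti-CTLA-4 replicate 2 the count was 0, of 425 at an unadjusted p under 0.05. Leaving out Control replicate 1 or anti-PD-1 replicate 2 also gave 0, Control replicate 2 or anti-CTLA-4 replicate 3 gave 1, and Control replicate 3 gave 2. The count was 3 when either anti-PD-1 replicate 1 or 3 was omitted and 14 when anti-CTLA-4 replicate 1 was. RLE factors and library totals gave 0 as well, voom 11 and DESeq2 311, of which 0 were among the 8.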

How the data were processed

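RNA of sorted cells was amplified with a single-cell kit and sequenced as read pairs, per the labels' protocols. Values in the deposited table are raw counts for each gene symbol and mouse, without normalization by the authors. The tools TopHat2, HTSeq and DESeq2 and the build GRCm38 appear, without versions, per the submitters' processing notes. The 5 HTSeq summary entries entered neither totals nor fits, and 32.9% to 40.7% of the counts of a library fell in genes. Reads shared by near-identical or overlapping genes may be uncounted.

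CPM is printed on library totals over all genes. Changes were fitted with edgeR 4.0.16 in R 4.3.3 (robust quasi-likelihood, TMM factors over the fitted genes, 3 groups, contrast of the mean of both antibody groups minus Control, Benjamini-Hochberg adjusted p under 0.05). SEs were approximated by dividing the change by the root of its F statistic. Overlap was read on CPM divided by TMM factors. Exact permutation tests of single genes used log2 CPM with TMM factors and a prior count of 2. Exact tests were two-sided. A gene at 0 has a floor of 3 counts, 0.0723 to 0.118 CPM, for counting error only, since reads carry no molecular identifiers. P-values measure the spread between mice. Alternatives covered RLE factors, library totals, DESeq2 1.42.0, limma voom 3.58.1, other filters, 2-group fits, the replicate number as a block and each library left out.

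The members, gene lists and tests were chosen with earlier results of these data known. Named were the genes without overlap, up to 8 a direction by smallest unadjusted p, 9 fixed genes (Mob1a and T cell genes) and up to 4 genes of each list; clones, predicted genes, receptor segments, ribosomal protein and mitochondrial genes were left to counts. Genes with an unadjusted p under 0.05 and some list members without overlap were named after their values were seen. Positions are from GENCODE M21, build GRCm38. The fits were tested on simulated data. The RLE intervals, the marker sum without H2-Eb1 and list medians against that of all genes were added after the data were seen.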

Additional observations from a re-analysis of the deposited data

Results flagged for a closer look

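In 35 measures, each over the 6 antibody libraries, the highest or lowest library was compared with the others by Dixon's test. In 12 it stood apart, 8 times in anti-CTLA-4 replicate 2. The nominal rate of about 1 in 20 holds for independent, normally distributed values. These measures share the same 6 libraries, and some are skewed marker sums. The 12 of 35 can therefore not be weighed against that rate. The 6 antibody libraries hold 2 treatments, so a library can also stand apart from those of the other antibody.

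Anti-CTLA-4 replicate 2 had 1163 consistently detected genes under 1 CPM, against 80 to 439 in the other antibody libraries. Its summed markers were 7543 CPM for macrophages and monocytes, 1624 CPM for neutrophils and 5049 CPM for fibroblasts, where the next highest antibody libraries held 1944, 116 and 1152 CPM. The neutrophil sum was Il1b, at 1357 CPM, and Mmp9, at 267 CPM, with S100a8, S100a9, Ly6g and the other 5 markers at 0 in that library. Mob1a stood at 2890 CPM in it and at 590 to 894 CPM in the other 5. Itm2b was at 265 CPM against 530 to 624.6 CPM, Cd3e at 0.59 CPM against 447.2 to 707 CPM and Foxp3 at 898 CPM against 2841 to 3901 CPM.

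Anti-PD-1 replicate 3 had the highest sums of CD8 T cell markers, 125 CPM against at most 0.118 CPM, and of MC38 and epithelial markers, 155 CPM against at most 57.7 CPM. Each sum was 1 gene, Cd8b1 and Lgals4. Cd8a was at 0 in every library, and Epcam, Krt8, Krt18, Krt19 and Cdh1 were at 0 in that library. The gamma delta T cell marker sum was 0.952 CPM in anti-CTLA-4 replicate 1, and the erythroid marker sum 2.48 CPM in anti-PD-1 replicate 2; both are low.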

How the results depend on the processing

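The pooled count over consistently detected genes was 0 under every alternative that kept a filter on consistent detection, and each replicate left out gave 0 (lowest and highest). With the filter on low counts only, the pooled, anti-CTLA-4, anti-PD-1 and antibody difference counts were 8, 29, 6 and 65. The difference count was 43 with DESeq2, 1 with voom and 2 with 5 CPM in at least 5 libraries.

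The whole-table count of 8 was 0 with RLE factors, library totals, or both antibody libraries numbered 2 left out, 311 with DESeq2, 5 with 2 groups only and 4 with no filter; leaving out 1 replicate gave 0 to 14. The replicate numbers did not pair the samples: deviations of same-numbered libraries correlated at -0.04 to 0.03, and 0 libraries correlated best with their own number in both other groups. With the replicate block the consistently detected count was 0, with 7 genes at an unadjusted p under 0.05, and the whole-table count 0.

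The 27 genes without overlap (6 higher, 21 lower) were 6 (3 and 3) with 5 CPM in all 9 libraries and 17 (13 lower) with a minimum of 20 CPM. The higher count was 2 with CPM by library totals and 12 with RLE factors. Leaving out 1 replicate, which leaves fewer libraries to overlap, gave 50 to 95 genes, 12 to 35 higher and 35 to 61 lower.

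The sign turned for 6 named genes, none past a threshold. RLE factors move the median of all genes to 0.33, and the 4 genes named with them lay below that median. With RLE factors Cd4 was 0.0042, Icos 0.29, Ctla4 0.0697 and Tigit 0.23, with DESeq2 0.0043, 0.29, 0.0697 and 0.23, and with library totals Foxp3 was -0.0192. With voom Cd4 was 0.0511, Cd3e 0.13 and Icos 0.0214; with 2 groups only Cd4 was 0.0304 and Icos 0.0327; with the filter on low counts Cd3e was 0.0490, Icos 0.15 and Tigit 0.0488; without both libraries numbered 2 Cd4 was 0.10, Cd3e 0.22 and Icos 0.0034. Leaving out 1 replicate gave -0.42 to 0.0876 for Cd4, -0.32 to 0.36 for Cd3e and -0.12 to 0.17 for Icos. Totals were at least 25530333 gene counts, and the spread between mice gave a median SE of 1.41. The cause of these dependences was not tested.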

Other observations

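Several gene groups of protein synthesis, folding and RNA handling had medians of opposite sign for the 2 antibodies with all 9 libraries. Translation factors had 19 of 27 genes higher and a median log2 change of 0.38, which was 0.84 for anti-CTLA-4 and -0.07 for anti-PD-1. Without anti-CTLA-4 replicate 2, 7 of 27 were higher and the median was -0.23, with -0.21 for anti-CTLA-4. Heat shock chaperones had medians of 0.50 and -0.16 for the 2 antibodies and splicing factors 0.39 and -0.15. Without that library the anti-CTLA-4 medians of these 2 lists were -0.02 and 0.02. Among the chaperones, Cct7, a subunit of the chaperonin that folds actin and tubulin, had a fitted change of 2.16 (SE 1.53), and Hspa8, a constitutive chaperone, stood at 900 ± 46.8 CPM in Control (SD, n = 3) and 972 ± 405 CPM with antibody (SD, n = 6). The antibodies share the 3 controls, and the differences of these medians were not tested.

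Of 20 unfolded protein response and endoplasmic reticulum chaperone genes, 8 were higher, with a median of -0.02, or -0.11 without anti-CTLA-4 replicate 2. Pdia4, a disulfide isomerase, did not overlap between the groups, at 228 ± 22.02 CPM in Control and 82.9 ± 59.4 CPM with antibody. Of 11 apoptosis genes 3 were higher, with a median of -0.28 that was 0.01 with RLE factors, and Casp1, the inflammatory caspase, stood at 42.8 ± 4.93 and 12.0 ± 11.1 CPM, also without overlap. Ebp, a sterol isomerase, stood at 106 ± 35.0 and 27.1 ± 27.6 CPM. None of these genes passed the test.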
